A study of Homo sapiens with 23 samples.

Results

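Replication start sites of late S and early S cells were compared in K562, an established human chronic myelogenous leukemia line, by mapping nascent strands. These are short, newly made DNA molecules that resist exonuclease digestion because an RNA primer still caps their 5′ end, so their pile-ups mark places where replication began. The comparison used every peak on chromosomes 1 to 22 and X of both lists, 81959 in the late S fraction and 73296 in the early S fraction, or 155255 of the 1741457 peaks in the 21 peak lists of the study. The study mapped nascent strands in K562 and in HCT116 colon carcinoma cells, together with binding of SIRT1 phosphorylated at T530 (pSIRT1), of MCM2 phosphorylated at S139 (pMCM2) and of acetylated histone H4 lysine 16 (H4K16ac). The HCT116 nascent strands used here came from a clone depleted of SIRT1, from depleted clones in which wild-type or T530A mutant SIRT1 was restored, and from wild-type cells in which the polymerase inhibitor aphidicolin was present at 200 nM for 24 h, followed by 24 h of growth without it. The HCT116 antibody libraries were from wild-type cells, and the K562 ones from wild-type cells, either unfractionated or separated by elutriation into G1, 3 stages of S phase and G2. Both K562 fractions were cells separated by their stage of S phase, and the labels give no treatment for them. The descriptions of the samples give these fractions, whereas the shared extraction protocol speaks of asynchronous cultures, and grouping followed the descriptions. The purity of the fractions could not be assessed from peak lists. Each fraction was 1 library, so the differences below are between libraries, no p-value was computed, and intervals cover counting error only. Coordinates are on hg19. No hg19 annotation was used here, so regions are given by position and not by gene.

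A mammalian genome replicates in a set order. Gene-rich, acetylated chromatin is generally copied early in S phase and gene-poor, compact chromatin late. Many more start sites are licensed than are used in a given cell, and sites lie in clusters in which neighbouring sites substitute for one another. MCM2 is a subunit of the replicative helicase loaded at licensed sites. SIRT1 is a NAD-dependent deacetylase whose substrates include H4K16ac.

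The lists of late S and early S were close to each other in size and shape. The late S list was 1.12 times as long as the early S list and covered 1.098 times the length, 194.4 Mb against 177.2 Mb. Peaks held 6810838 reads in late S and 5870637 reads in early S, which is 35.0 and 33.1 reads per kb of peak. The median peak held 62 reads in late S and 60 reads in early S, and the lowest counts in any peak were 20 and 19 reads. Sequencing depth outside peaks is unknown, so the longer late S list cannot be told apart from a deeper library.

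Peak widths also matched. The median was 2000 bp in both lists, with an interquartile range of 1200 to 3000 bp in late S and 1400 to 3000 bp in early S. All widths were multiples of 200 bp. Peaks of at most 1 kb were a slightly larger part of the late S list, where the class of 400 to 1000 bp held 15.9% of peaks against 14.6% in early S. Peaks wider than 10 kb were rarer in late S, 388 against 487 peaks. The widest peak of both lists was the same region of chromosome 1, from 142781201 to 142930600 in late S and from 142781801 to 142930800 in early S, and it also held the most reads, 12942 and 12037. The next widest late S peaks lay on chromosome 13. The first, at 91778401 to 91899800, was 121.4 kb wide and met 7 early S peaks with a summed length of 123.4 kb. The second, at 81242001 to 81340200, was 98.2 kb wide and met 2 early S peaks with a summed length of 26.8 kb. In early S the next widest peaks were also on chromosome 13, at 93108601 to 93168200 and at 92050601 to 92104800, where late S peaks covered 72.4 and 60.6 kb. K562 is aneuploid and carries amplified segments. Reads were not compared here with the genomic DNA control, so local copy number and initiation cannot be told apart in these rankings.

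Most peaks of both lists overlapped a peak of the other fraction, but few peak middles lay within 200 bp of each other. Of the late S peaks, 53.6% shared at least 1 bp with an early S peak, and 59.7% of the early S peaks shared at least 1 bp with a late S peak. With each peak reduced to 200 bp around its middle, the shares were 10.7% and 12.0%. For orientation, the early S list covered 6.003% of the mapped span of the chromosomes and the late S list 6.59%. These are shares of length and not the overlap expected of randomly placed peaks. That overlap also depends on the width and number of peaks, and it was not computed. By length, 82.6 Mb were covered in both, which is 42.5% of the late S length and 46.6% of the early S length. Sharing rose steadily with the number of reads in the peak. With each list divided by reads into 10 groups of equal size, it was 30.2% in the lowest and 84.6% in the highest group of late S peaks, and 39.7% and 84.3% in the same groups of early S peaks. Width gave the same order, with 32.7% of late S peaks and 41.3% of early S peaks up to 400 bp shared and 76.7% and 78.4% of peaks between 4 and 10 kb. Above 10 kb the lists differed the other way, with 96.1% of late S peaks and 87.9% of early S peaks shared. By reads, the shared fraction of weak peaks thus differed between the lists more than that of strong ones, and by width it did not. Peaks of a single fraction were weaker than shared ones. The 37999 late S peaks without early S overlap held a median of 53 reads and the 29513 early S peaks without late S overlap a median of 51, while shared peaks held 74 and 68 reads. Both single-fraction classes had a median width of 1800 bp, against 2200 bp for both shared classes.

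**Figure D1:**
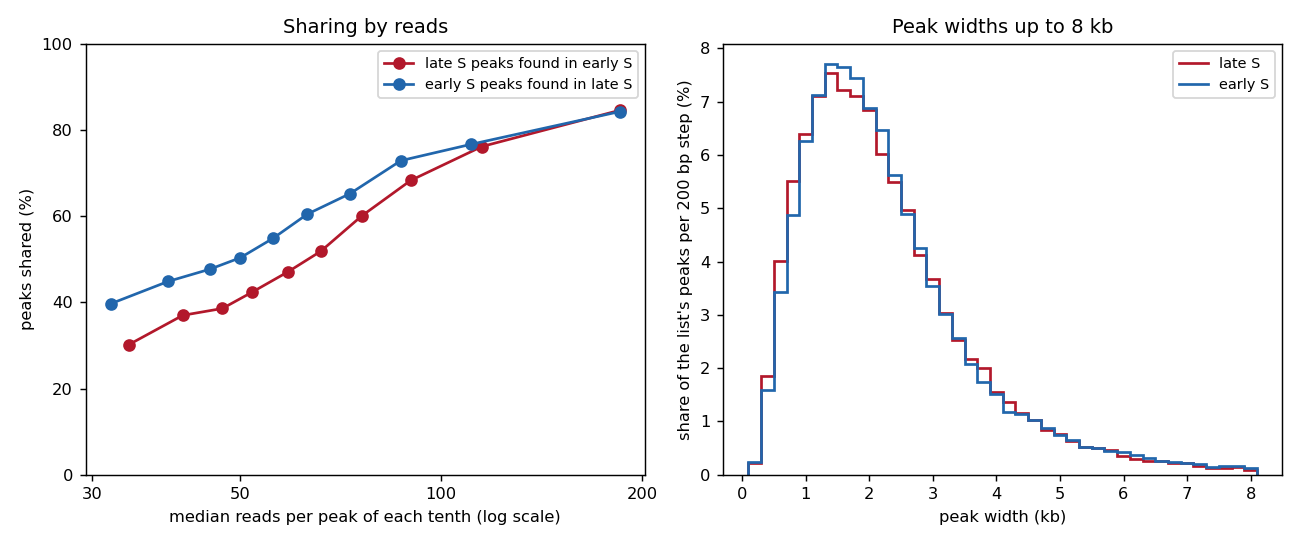
Left, share of peaks that overlap the other fraction (%) against the median reads per peak in 10 groups of each list by reads (log scale), late S in red and early S in blue. Both curves end between 84.3 and 84.6% in the highest group, and late S starts lower, at 30.2% against 39.7%. Right, share of each list's peaks per 200 bp step of width (kb), up to 8 kb, where both distributions lie almost on each other around the common median of 2000 bp.

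The middle S list was a further library of the same line and the shortest of the 3, with 67803 peaks. It was met by 50.8% of late S peaks and 54.6% of early S peaks. Overlap shares depend on list length, and none were made with middle S at equal lengths. They do not show whether middle S lay between the other fractions. Among shared peaks the share found in middle S was 70.2% for late S and 70.1% for early S. Among peaks of a single fraction it was 28.4% for late S alone and 31.6% for early S alone. Sites in all 3 fractions were 37.6% of late S peaks and 41.9% of early S peaks. Sites of no other fraction were 33.2% of late S peaks and 27.5% of early S peaks.

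Along the chromosomes, late S peaks were shifted towards gene-poor chromosomes by a small amount. The log2 ratio of the share of late S peaks to the share of early S peaks was lowest on chromosome 17, -0.26 (95% interval -0.35 to -0.16), with 1675 late S and 1789 early S peaks. Next came chromosome 22 with -0.19 (-0.37 to -0.01), from 512 late S and 523 early S peaks. The highest ratios were on chromosome 4, 0.12 (0.01 to 0.23), with 1531 late S and 1258 early S peaks, and on chromosome 5, 0.11 (0.06 to 0.16), with 7224 and 5994 peaks. On chromosome 19, the chromosome densest in genes, the ratio was -0.19. All 8 of the most gene-dense chromosomes (19, 17, 22, 11, 16, 20, 1 and 12, by protein-coding genes of RefSeq per Mb) had a negative ratio, together -0.08, with 27144 late S and 25700 early S peaks. Of the 8 least gene-dense chromosomes, 6 had a positive ratio, and together they gave 0.05. Across the 23 chromosomes the ratio and the gene density had a Pearson r of -0.78 and a Spearman rho of -0.84. This is a description of 1 pair of libraries, and gene-dense chromosomes also share a high GC content, which was not measured here. Peak density itself had no such order, with a rho of -0.02 for late S and 0.06 for early S. The share of the list on chromosome 19 was 1.53% in early S, 1.94% in middle S and 1.34% in late S, so middle S was the highest there and not intermediate. By reads in peaks the ratio of chromosome 17 was -0.36, whereas that of chromosome 22 was 0.03. A single region of chromosome 22, described below, held 9251 late S reads.

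**Figure D2:**
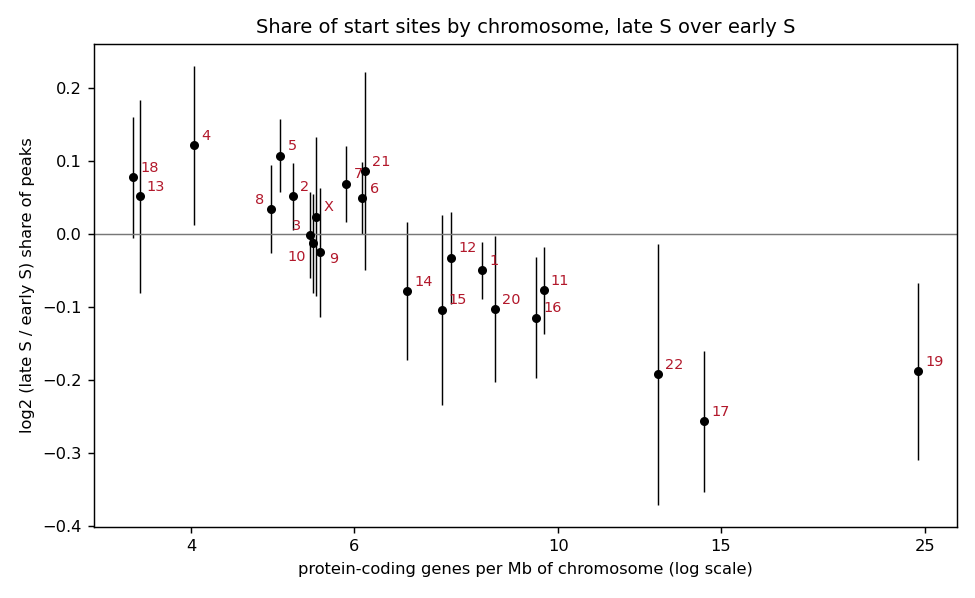
Log2 ratio of the share of late S peaks to the share of early S peaks for each chromosome, against protein-coding genes per Mb (log scale). Bars are exact 95% binomial intervals, which cover counting error only. The 8 most gene-dense chromosomes lie below 0, with chromosome 17 lowest at -0.26, and chromosome 4 is highest at 0.12.

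At 1 Mb resolution the fractions had nearly the same landscape. Of 2888 bins of 1 Mb that held a peak of any list, 2629 held at least 10 late S and early S peaks together. Among these the median bin had 28 late S and 25 early S peaks, and the counts of both fractions had a Pearson r of 0.92 across bins, given as a description since bins share libraries and mappability. The log2 ratio of relative peak number, with 0.5 added to each count, lay between -0.74 and 0.72 in the central 90% of bins. A ratio of at least 2-fold was found in 54 bins towards late S (2.05%) and in 57 bins towards early S (2.17%). Bins past 2-fold towards late S were thinly filled, with a median of 14.5 peaks of both fractions together, and those towards early S held 29, against 54 in all bins tested. With at least 40 peaks required, 2 bins remained past 2-fold towards late S and 19 towards early S among 1635. By covered length in place of peak number the split was 64 against 124, with bins of 500 kb 93 against 164, with equal list lengths 31 against 73 and with a pseudocount of 2 it was 26 against 42. With bins of 5 Mb, 1 bin passed on each side, and with peaks within 1 kb merged the balance turned to 57 towards late S and 52 towards early S. The 57 bins past 2-fold towards early S held 605 late S peaks and 1303 early S peaks, of which 881 were found in early S alone. In the 54 bins past 2-fold towards late S there were 730 late S peaks and 250 early S peaks. Of these late S peaks 560 were found in late S alone. Over the whole lists, 29513 of 73296 early S peaks and 37999 of 81959 late S peaks were found in their fraction alone. The bins were chosen by their peak numbers, so part of this excess comes with the choice.

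The chromosome with the most bins past 2-fold towards early S was chromosome 17, with 8 of 78 bins tested. Chromosome 1 had 7 of 229, chromosome 7 had 6 of 156 and chromosome 16 had 6 of 77. Towards late S, chromosome 4 had 9 of 124, chromosome 9 had 6 of 98 and chromosome 3 had 6 of 172, while chromosomes 6, 12, 16 and 17 had 0. Most stood alone, since 52 of 53 runs towards late S and 49 of 53 runs towards early S were a single bin. The runs of 2 bins towards early S were on chromosome 16 between 14 and 16 Mb, on chromosome 2 between 26 and 28 Mb, on chromosome 1 between 155 and 157 Mb and on chromosome 19 between 11 and 13 Mb. The one towards late S was on chromosome 4 between 182 and 184 Mb, with 17 late S and 3 early S peaks. Weaker shifts extended further, since 58.2% of 2487 pairs of neighbouring bins were on the same side of 0, where unrelated neighbours would give 50.1%. The ratios of neighbours had a Pearson r of 0.23.

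Among bins with at least 40 peaks, the strongest shift towards early S was on chromosome 2 between 26 and 27 Mb. It held 13 late S peaks against 37 early S peaks, a log2 ratio of -1.64 (-2.71 to -0.73), and peaks covered 2.66% of it in late S and 10.1% in early S. Of its early S peaks 26 were found in early S alone, and 2 of its late S peaks in late S alone. The bin of chromosome 12 between 50 and 51 Mb had 17 late S and 44 early S peaks (-1.51), and that of chromosome 1 between 32 and 33 Mb had 18 and 44 (-1.43). The bins of chromosome 2 between 219 and 220 Mb and of chromosome 1 between 11 and 12 Mb each had 13 late S and 30 early S peaks (-1.34). In these 5 bins middle S had 33, 35, 27, 30 and 19 peaks, above the late S number in each. The bins were chosen for few late S peaks relative to early S, so part of this order comes with the choice. Towards late S, the strongest shift was on chromosome 22 between 49 and 50 Mb, with 34 late S and 13 early S peaks and a log2 ratio of 1.19 (0.27 to 2.27). Next were chromosome 3 between 192 and 193 Mb with 31 late S and 13 early S peaks (1.06), chromosome 20 between 53 and 54 Mb with 36 and 16 (0.98), chromosome 18 between 68 and 69 Mb with 33 and 15 (0.95) and chromosome 6 between 127 and 128 Mb with 35 and 16 (0.94). Middle S had 27, 13, 15, 19 and 15 peaks there, close to early S except on chromosome 22. The 5 ratios towards early S were each larger in size than the largest towards late S.

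The regional shift followed H4K16 acetylation mapped in HCT116, another cell line and another library. Bins were ordered by the share of their length inside H4K16ac peaks and divided into 5 groups of nearly equal size. In the least acetylated group, with a median coverage of 0.581%, the pooled log2 ratio of late S to early S was 0.13, and in the next it was 0.18. It was 0.04 in the middle group and -0.09 in the next. In the most acetylated group, with a median coverage of 38.1%, it was -0.26, with 12744 late S and 13645 early S peaks. The bins past 2-fold followed this order in part. From the least to the most acetylated group there were 19, 19, 4, 2 and 10 towards late S and 7, 1, 2, 9 and 38 towards early S, so the most acetylated group held most of those towards early S and also more towards late S than the group before it. As a share of each list, the most acetylated group held 18.6% of early S peaks, 21.6% of middle S peaks and 15.5% of late S peaks, and the least acetylated group held 14.2, 9.88 and 15.5%. Middle S thus had the highest share in the most acetylated group and the lowest in the least acetylated one. Early S lay between middle S and late S in both. When bins were ordered instead by coverage with K562 pMCM2 of G2, the pooled ratio ran from 0.12 in the lowest group to -0.05 in the highest. Distance from the chromosome ends showed no such order. The log2 ratio was -0.05 (-0.17 to 0.08) within 1 Mb of an end and -0.002 beyond 10 Mb.

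**Figure D3:**
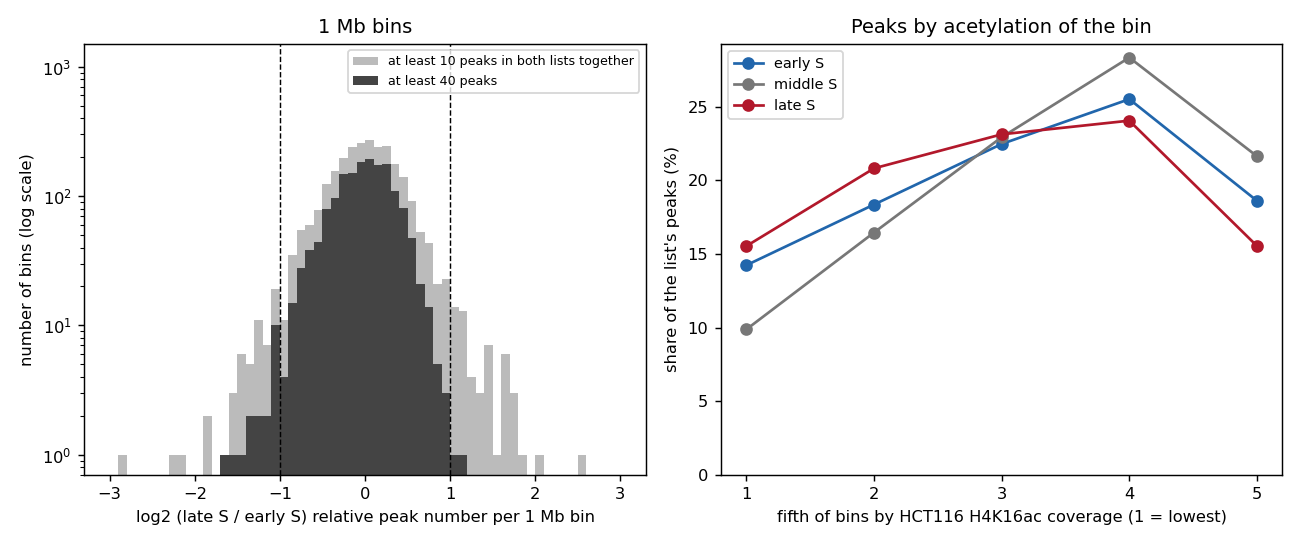
Left, number of 1 Mb bins (log scale) by the log2 ratio of late S to early S relative peak number, for bins with at least 10 peaks (light) and at least 40 peaks (dark), with dashed lines at 2-fold. Of the dark bins, 2 lie past the line towards late S and 19 past the line towards early S. Right, share of each list's peaks (%) in 5 groups of bins by HCT116 H4K16ac coverage, with early S, middle S and late S as lines. In the most acetylated group the shares are 18.6, 21.6 and 15.5%.

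Start sites were clustered in both fractions, and slightly more closely in late S. The median distance to the nearest peak of the same list was 6.8 kb in late S and 7.6 kb in early S, and 61.8% of late S peaks and 58.2% of early S peaks had a neighbour within 10 kb. The difference of 3.55 percentage points was 1.13 when the late S list was cut to the length of the early S list by reads, and the part of list length in it was not tested further. Peaks chained by gaps of at most 10 kb formed 48482 clusters in late S and 45844 in early S, of which 31342 and 30628 were single peaks. Clusters of at least 5 peaks held 16.2% of late S peaks and 11.9% of early S peaks. The largest late S cluster had 31 peaks, on chromosome 1 from 209500401 to 209661400, and the largest early S cluster had 25 peaks, on chromosome 2 from 149923001 to 150105800. Over all 1 Mb bins the variance of the peak number was 15.1 times its mean in late S and 13.2 times in early S, a ratio of 1.14. Part of this ratio comes with the mean itself, and the squared coefficient of variation beyond counting was 0.497 in late S and 0.480 in early S.

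Peaks in large clusters were shared more often than peaks that stood alone. In clusters of at least 5 peaks 62.8% of late S peaks and 71.8% of early S peaks were shared, against 47.6% and 54.4% of single peaks. Late S peaks without early S overlap had a median distance of 9.80 kb to the nearest early S peak, and early S peaks without late S overlap had 9.0 kb to the nearest late S peak. Of these single-fraction peaks, 50.9% in late S and 53.6% in early S had a peak of the other fraction within 10 kb, and 9.54% and 8.60% had none within 50 kb. A switch between neighbouring sites and a site just below the calling limit in the other library cannot be told apart in these lists.

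Of the 6 single-fraction peaks with the most reads, 3 from each list, 5 had a peak of the other list within 50 kb. This is near the general share, since only 9.54% of all such late S peaks and 8.60% of such early S peaks had none. In late S the first, on chromosome 21 at 11068201 to 11153200, was 85.0 kb wide with 11674 reads, and 2 early S peaks with 1158 reads lay within 50 kb. The second, on chromosome 13 at 108515601 to 108573600, had 3735 reads and 3 early S peaks with 1808 reads within that distance. The third, on chromosome 14 at 19501201 to 19513600, had 1588 reads, against 215 in middle S, and 7 early S peaks nearby. In early S the first was on chromosome 7 at 61809001 to 61828800 with 1253 reads, and 4 late S peaks with 437 reads lay within 50 kb. The second, on chromosome 10 at 127580001 to 127597800, had 1241 reads and no middle S peak. The third, on chromosome 1 at 27912001 to 27928000, had 1038 early S reads and 1482 middle S reads, with no late S peak within 50 kb.

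Sites shared by both fractions were compared in reads and width after joining all peaks that overlapped into 41737 sites, 91.4% of which were made of 1 peak from each list. They held 64.8% of late S reads and 69.1% of early S reads. Their edges were rarely the same. In sites of 1 peak from each list the start was identical in 19.5% and both edges in 4.01%, the median shift of an edge was 400 bp, and in 64.8% the narrower peak lay wholly inside the wider one. The median log2 ratio of late S to early S width was 0, with 46.9% of sites wider in late S, 44.8% wider in early S and 8.33% equal. A width difference of at least 2-fold was found in 13.6% of sites towards late S and 12.8% towards early S.

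Relative reads at shared sites also balanced. The log2 ratio of late S to early S reads, scaled to the reads of all shared sites, had a median of 0.00 and an SD of 0.64 across sites. At least 2-fold more relative reads were found in late S at 2407 sites (5.77%) and in early S at 2477 sites (5.93%). Scaled to all reads in peaks, the split was 1858 sites towards late S and 3082 towards early S, so the balance depended on the scaling. In 98.8% of the sites past 2-fold the list with more reads also had the wider peak. The log2 ratios of reads and width had a Pearson r of 0.85 across sites. Reads were those of each list's own peaks and not of a common interval, so the read and width ratios are tied by the counting itself. Per kb of peak, scaled to the mean of all shared sites, 1361 sites passed 2-fold towards late S and 906 towards early S. With the median ratio per kb set to 0 the split was 1421 and 850. Among the 8552 sites with at least 100 reads in both lists, 147 (1.72%) passed towards late S and 149 (1.74%) towards early S.

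**Figure D4:**
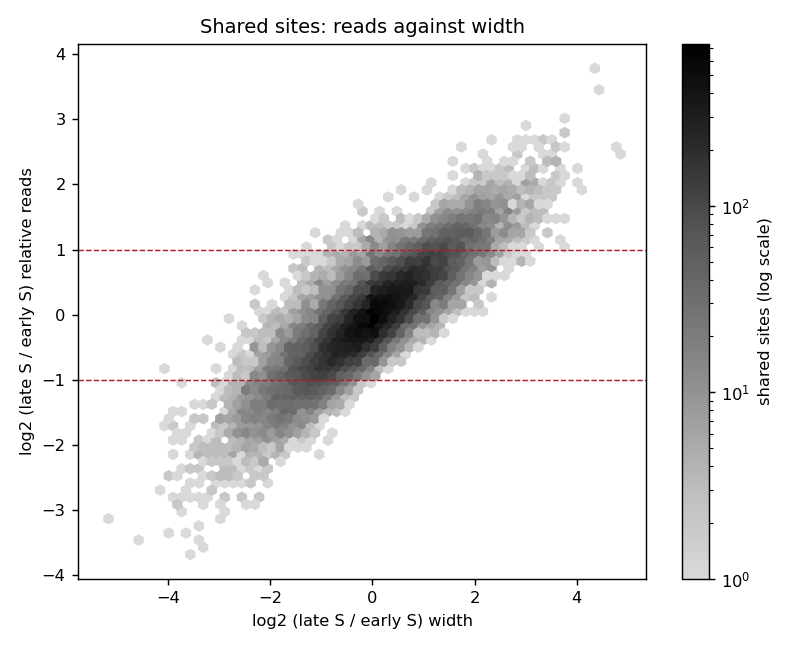
Log2 ratio of late S to early S relative reads against the log2 ratio of widths at the 41737 shared sites, with darker cells holding more sites (log scale) and dashed lines at 2-fold in reads. The sites lie along a rising diagonal with a Pearson r of 0.85, and 2407 sites lie above the upper line and 2477 below the lower one. Reads were those of each list's own peaks, so both axes are tied by the counting itself.

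At the 5 shared sites most in favour of late S with at least 100 reads in both lists, the late S peak was wider. The first, on chromosome 21 at 11029601 to 11067000, had 2583 late S reads over 37400 bp against 512 early S reads over 5600 bp (log2 2.21). It lay beside the peak of chromosome 21 that had the most reads among sites of late S alone. The second, on chromosome 1 at 208033801 to 208051200, had 491 late S reads against 104 early S reads, and the third, on chromosome 13 at 90564801 to 90574400, had 416 against 101. On chromosome 22 a region at 22405401 to 22490000 had 9251 late S reads over 84400 bp and 2492 early S reads over 14400 bp (log2 1.77). Middle S had 9308 reads there, close to late S, and per kb of its narrower peak early S was higher, with 173 reads against 110 in late S. On chromosome 16 at 27798201 to 27808400 there were 701 late S reads and 192 early S reads. The middle S list had 2596, 658, 308, 9308 and 712 reads at these 5 sites, so early S was the low fraction at each. The sites were chosen for few early S reads relative to late S, so part of this order comes with the choice. Read numbers are not scaled between the lists.

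At the 5 sites most in favour of early S, the early S peak was the wider one. On chromosome 1 at 143483401 to 143500000 there were 150 late S reads over 2200 bp and 981 early S reads over 16000 bp (log2 -2.83). On the same chromosome at 249138801 to 249151400 there were 110 late S and 598 early S reads (-2.56). The third, on chromosome 19 at 51866401 to 51878800, had 140 late S reads over 800 bp and 737 early S reads over 12400 bp (-2.52), and per kb late S was higher, with 175 reads against 59.4. The others were on chromosome 7 at 128326801 to 128344000 with 127 late S and 548 early S reads, and on chromosome 2 at 243152401 to 243160600 with 125 and 508. Middle S had 967, 666, 844, 170 and 826 reads at these sites. Late S was thus the lowest of the 3 fractions at each, and on chromosome 7 middle S was close to it. Part of this order also comes with the choice of sites by their low late S reads. Of the sites with the most reads in each list, the region of chromosome 1 from 142781201 to 142930800 had 12942 late S and 12037 early S reads. A cluster on chromosome 13 from 91731801 to 91899800 had 9284 late S reads in 2 peaks and 7842 early S reads in 11 peaks. A region of chromosome 1 at 564401 to 575400 had 8967 late S reads and 10245 early S reads. That is 815 and 1024.5 reads per kb of peak, against 35.0 and 33.1 over the whole lists. Mappability and local copy number were not examined at the named sites, so high read numbers there need not reflect initiation.

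As a ratio, late S and early S sites differed most in their overlap with phosphorylated SIRT1 in K562, a readout from other libraries. Of late S peaks without early S overlap, 7.26% (7.00 to 7.52) carried a pSIRT1 peak of early S, against 3.30% (3.10 to 3.51) of early S peaks without late S overlap, a ratio of 2.20. The order was the same on 23 of 23 chromosomes. The difference of 3.95 percentage points was 2.55 among sites also absent from middle S. For pSIRT1 of G2 the shares were 7.79% and 4.04%, also on 23 of 23 chromosomes, and the difference of 3.74 points was 2.27 among sites absent from middle S. For pSIRT1 of middle S they were 4.66% and 2.88%, likewise on 23. For the longer pSIRT1 lists of G1, late S and unfractionated cells the shares over all widths were close. They were 12.8 and 11.9%, 22.8 and 22.1%, and 17.5 and 17.2%. The differences, late S alone minus early S alone, were 0.887, 0.695 and 0.299 percentage points. Within sites of 1 to 2 kb they were larger, 2.18, 2.78 and 1.86 percentage points. The pSIRT1 list of early S, with narrow peaks that cover 0.779% of the genome, thus met sites of late S alone more often than sites of early S alone, although it came from early S cells. Each of these pSIRT1 lists was 1 library. Shared sites carried pSIRT1 of early S at 10.2% for late S peaks and 10.0% for early S peaks.

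The same order continued within the shared sites. With shared sites divided into 5 groups by the read ratio, the share with a pSIRT1 peak of early S was 7.82% in the group most in favour of early S, then 9.79, 11.2 and 11.6%, and it was 15.3% in the group most in favour of late S. The first and last of these groups had the same median width, 3400 bp, and the groups between them 2800 bp. For pSIRT1 of G2 the ends were 9.16% and 15.9%. A rise was not particular to pSIRT1, since the ends were 41.8% and 47.0% for K562 pMCM2 of G2. They were 47.0% and 51.2% for nascent strands of SIRT1-depleted HCT116, 70.6% and 71.7% for middle S, and 58.8% and 54.3% for H4K16ac. Across regions the difference in pSIRT1 between sites of late S alone and of early S alone was largest where H4K16ac was densest. In the most acetylated group of bins, 20.3% of sites of late S alone and 5.76% of sites of early S alone carried pSIRT1 of early S, and in the least acetylated group 3.37% and 1.99%.

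For the 5 K562 pMCM2 lists the ratio of the share at sites of late S alone to that at sites of early S alone lay between 1.09 and 1.20. The G2 list was met by 24.9% of sites of late S alone and 21.2% of sites of early S alone, and the late S list by 10.4% and 8.67%, both in the same order on 23 of 23 chromosomes. For G1, early S and middle S the shares were 5.01 and 4.51%, 8.49 and 7.81%, and 10.8 and 9.52%. For the pMCM2 list of HCT116 they were 26.4 and 26.1%, a ratio of 1.01. H4K16ac of HCT116 had the opposite order, with 37.3% of sites of late S alone and 42.0% of sites of early S alone. Sites of late S alone had the higher share on 5 of 23 chromosomes, and within sites of 1 to 2 kb the shares were 35.3 and 37.5%. The difference of -4.72 percentage points was -8.17 among sites at or above the median read count.

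Start sites of the other cell line were mapped in 4 lists, of which 3 came from single clones. Nascent strands of HCT116 cells depleted of SIRT1 were met by 33.2% (32.8 to 33.7) of sites of late S alone and 27.9% (27.4 to 28.4) of sites of early S alone, in the same order on 23 of 23 chromosomes. With wild-type SIRT1 restored to these cells the shares were 28.5% and 27.9%, and with the T530A mutant restored 33.3% and 31.5%. In wild-type HCT116 cells after aphidicolin they were 30.5% and 30.4%. Within sites of 1 to 2 kb the shares were 31.3 and 24.9% for the depleted cells and 26.7 and 24.9% with wild-type SIRT1 restored. At that width they were 31.9 and 28.7% with the T530A mutant and 29.2 and 27.8% after aphidicolin. In this order from the depleted cells on, the lists held 109990, 74479, 103974 and 96993 peaks, each from 1 library. Overlap shares depend on list length, so they cannot be compared directly between these lists. In the most acetylated group of bins the depleted list was met by 59.5% of sites of late S alone and 40.7% of sites of early S alone. Over all 19 other lists, sites of late S alone had the higher share in 16, and in 17 when sites of 1 to 2 kb were compared. Shared peaks of both fractions had a higher share than the peaks of that fraction alone in 19 of 19 lists. Shared peaks were also wider and held more reads, and the part of this in the order was not tested.

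**Figure D5:**
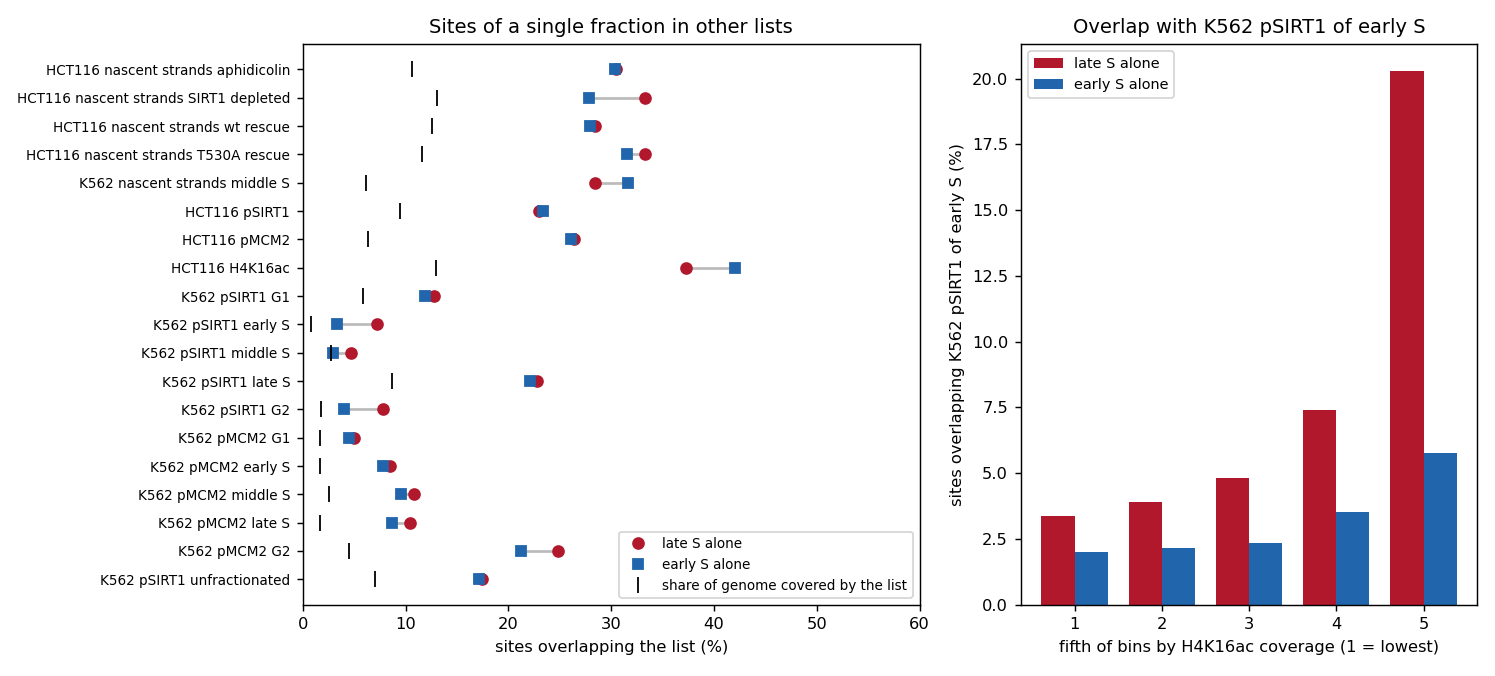
Left, share (%) of sites of late S alone (red circles) and early S alone (blue squares) that overlap each of 19 other lists. Black marks give the share of the genome that the list covers (%). The mark is not the share expected of randomly placed sites, which also grows with site width and peak number and was not computed. The widest gaps are for nascent strands of SIRT1-depleted HCT116 cells, 33.2 against 27.9%, for H4K16ac, 37.3 against 42.0%, and for K562 pSIRT1 of early S, 7.26 against 3.30%. Right, share of sites that overlap K562 pSIRT1 of early S (%) in 5 groups of 1 Mb bins by HCT116 H4K16ac coverage, 20.3 against 5.76% in the highest group.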

How the data were processed

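Peaks were on hg19, and MACS and SICER are named without role, version or setting, per the submitters' processing notes. Sheared genomic DNA of the same line was the control, per the labels. The sources used here give neither aligner nor thresholds. The authors deposited whole numbers per peak, taken as read counts and not scaled between libraries. Other lists served only as intervals, and the score, fold enrichment and −log10 p and q columns deposited by the authors were not used. Peaks on other chromosomes (41 in late S, 28 in early S) were left out. No peaks within a list overlapped.

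Overlap needed 1 bp. Bins counted peak middles. The mapped span of a chromosome runs from the first to the last peak of any list. Gene numbers per chromosome came from RefSeq on GRCh38.p14, without its coordinates. Named regions were the 5 bins with at least 40 peaks and the 5 shared sites with at least 100 reads that were most extreme on each side, and the strongest and widest peaks. Members, limits and lists were chosen with earlier results of these data known, and the ordering by H4K16ac and pMCM2, the split by chromosome and the grouping of sites by read ratio were chosen after values were seen. Intervals are exact Clopper-Pearson 95%. Functions were tested on simulated data. Python 3.11.15, numpy 2.4.6, pandas 2.3.3, scipy 1.17.1 and matplotlib 3.10.9 were used.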

Additional observations from a re-analysis of the deposited data

How the results depend on the processing

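No paired analysis was possible because each fraction had 1 library and no test was made. Depth outside peaks is unknown and limits all counts. Of the alternatives run, merging peaks within 1 kb turned the balance of bins past 2-fold towards late S, and counting reads per kb turned that of shared sites past 2-fold towards late S.

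The share of late S peaks found in early S moved from 53.6% to 50.9% with at least 50% of the shorter peak, 56.6% within 1 kb, 50.5% in the higher-read 50% of each list, 56.4% with equal list lengths, 10.7% with 200 bp around peak middles and 52.3% without the 2 densest chromosomes (1 and 6). The share of early S peaks found in late S moved from 59.7% to 56.8, 62.5, 56.4, 56.6, 12.0 and 58.4% under the same alternatives. The ratio of list lengths was 1.098 by covered length and 1.20 among peaks at or above the early S median of 60 reads. Bins past 2-fold towards late S and early S numbered 93 and 164 at 500 kb, 1 and 1 at 5 Mb, 2 and 19 with at least 40 peaks, 203 and 236 at 1.5-fold, and 57 and 52 with peaks within 1 kb merged. Towards late S they numbered 26 with a pseudocount of 2 and 31 with equal list lengths, and towards early S 124 by covered length and 86 in the higher-read 50%. The difference in peaks with a close neighbour was 0.933 percentage points within 50 kb, 2.08 within 2 kb and 1.13 with equal list lengths. The ratio of variance to mean was 1.138 at 500 kb, 1.149 at 5 Mb, 1.136 with equal list lengths and 1.108 with peaks within 1 kb merged, against 1.145. Shared sites past 2-fold towards late S and early S numbered 1361 and 906 per kb and 147 and 149 with at least 100 reads.

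Alternatives for 4 class differences were chosen after seeing the data. The difference between late S alone and early S alone in overlap with K562 pSIRT1 of early S, 3.95 percentage points, was 2.55 among sites also absent from middle S and 5.13 among sites with more reads. For pSIRT1 of G2 it was 3.74, then 2.27 and 4.77. For SIRT1-depleted HCT116 it was 5.37, then 6.39 at 1 to 2 kb and 4.17 for sites absent from middle S. For H4K16ac it was -4.72, then -2.15 at 1 to 2 kb and -8.17 among sites with more reads. The cause of these movements was not tested.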
